A study of Musa acuminata AAA Group with 4 samples.

Results

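Leaf gene expression was compared between 1 library from Cavendish banana seedlings grown with low potassium and 1 library from seedlings grown with normal potassium. Cavendish is a cultivar of dessert banana with the triploid Musa acuminata genome AAA. The normal potassium plants received complete Hoagland culture solution and the low potassium plants a Hoagland-type solution poor in potassium, and both were sampled after a processing time of 60 days. Seedlings had been chosen for uniform height and appearance. The labels do not say whether leaves of several plants were pooled, which leaf was taken, or at what hour. The genes described are all 1183 genes of the authors' deposited leaf table, out of 5520 genes listed in leaf or root. That table holds only genes past the authors' own limits, an FDR of at most 0.001 and a log2 ratio of at least 1 in either direction, so other leaf genes were not analysed here.

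Potassium is the most abundant cation of plant cells. It balances negative charge, drives water into vacuoles and guard cells, activates enzymes of protein and starch synthesis, and travels with nitrate in the xylem and with sugars in the phloem. Shortage is known to show first in older leaves, because potassium is moved from them to growing parts. In Arabidopsis, low potassium is also known to raise transcripts of jasmonate synthesis and response, the hormone pathway best known for wounding and insect attack.

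Each gene is given with its FPKM value, that is fragments scaled to gene length and to the fragments assigned in the library, first with normal and second with low potassium. The fold is the ratio of these values, and the range in parentheses after it is its 95% exact (Clopper-Pearson) counting interval. With 1 library per group there is no replicate check. The interval covers counting error only and not the variation between plants, so each fold describes these libraries. Fragments assigned to genes, computed from the deposited values, numbered about 4302896 with normal and 4203766 with low potassium. The leaf origin could be checked only among the listed genes. These included 4 light-harvesting chlorophyll a-b binding proteins, with a summed level of 244 FPKM in normal and 693 FPKM in low potassium. Root markers could not be checked, since a gene that is expressed but differs little is not in the table. In whole leaves, fewer cells of a type and less RNA per cell cannot be told apart.

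Of the listed leaf genes, 797 were higher (67.4% of the table) and 386 were lower (32.6%) in low potassium. These shares are the background against which the counts of each function group are read. The median fold was 3.31 among the higher genes and 2.75 among the lower genes, and 39.3% of the higher against 25.6% of the lower genes were past 4-fold. The counting interval lay wholly past 2-fold for 464 of the higher genes and 160 of the lower genes. The listed genes held 4.53% of the assigned fragments with normal and 6.34% with low potassium. A protein name placed 774 of the genes in 1 of 62 function groups, 210 had only an uncharacterised match or none, and 199 had a name outside the groups. For 479 genes at least 1 deposited count is not whole. How the authors divided such counts is unknown, so values of single members of large families are uncertain.

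**Figure D1:**
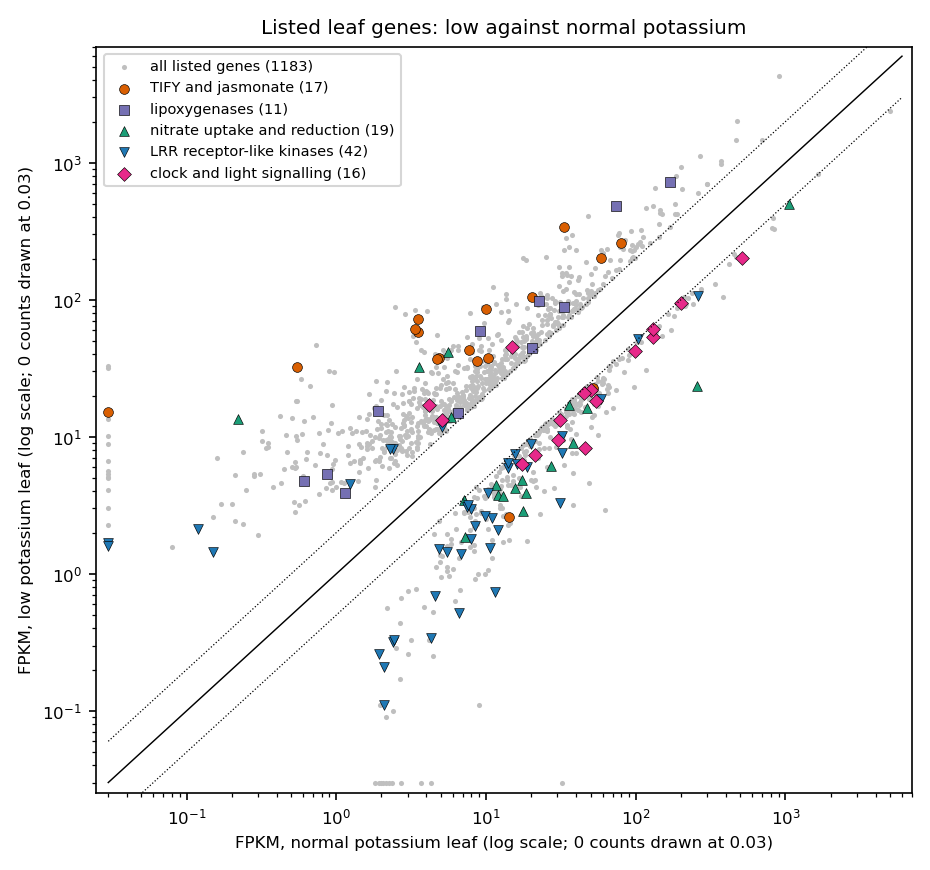
FPKM of each of the 1183 listed leaf genes with normal (x axis) and low potassium (y axis), both on log scales, with 1 point per gene, the solid line at equal values and the dotted lines at a ratio of 2 either way. The 17 TIFY and jasmonate genes and 11 lipoxygenases lie mostly above the upper dotted line, while most of the 19 nitrate, 42 leucine-rich repeat kinase and 16 clock genes lie below the lower one.

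The most abundant named genes that were higher in low potassium included the following. Dehydrin COR410 (Ma11_g01190), a hydrophilic protein that accumulates in drying or chilled tissue, had 476 and 2024 FPKM and was 4.25-fold higher (4.01 to 4.51). The small heat shock protein Ma01_g14490, a class I chaperone of 18.1 kDa that holds unfolded proteins, had 471 and 1477 FPKM and was 3.14-fold higher (2.91 to 3.39). Both had more transcript per length in low potassium than nearly all other listed genes. Catalase isozyme A (Ma01_g10810), which removes hydrogen peroxide in peroxisomes, had 301 and 695 FPKM and was 2.31-fold higher (2.18 to 2.44). A glutathione S-transferase U18-like gene (Ma05_g10090), of a family that joins glutathione to reactive compounds, had 185 and 803 FPKM and was 4.34-fold higher (3.95 to 4.78). An aspartic proteinase of the nepenthesin type (Ma08_g02730) had 373 and 1028 FPKM and was 2.76-fold higher (2.62 to 2.902). Nepenthesins are named after the digestive enzymes of pitcher plants.

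The most abundant named genes that were lower in low potassium had varied functions. GDP-L-galactose phosphorylase 1 (Ma10_g11130), a control point of ascorbate synthesis, had 1659 and 822 FPKM and was 2.02-fold lower (1.95 to 2.09). The heat shock protein 70 relative named mediator subunit 37c (Ma06_g36160) had 834 and 331 FPKM and was 2.52-fold lower (2.41 to 2.64). Its direction was opposite to that of the small heat shock protein above. The transcription factor MYB1R1 (Ma05_g08940), known in potato for a part in drought response, had 380.4 and 106 FPKM and was 3.602-fold lower (3.19 to 4.08). A vacuolar-processing enzyme (Ma06_g37610), a protease that matures vacuolar proteins, had 340 and 129.5 FPKM and was 2.62-fold lower (2.42 to 2.85). Zinc transporter 2 (Ma08_g27050) had 454 and 216 FPKM and was 2.11-fold lower (1.95 to 2.28). An aquaporin NIP2-1-like gene (Ma10_g29710), of a group that in rice carries silicic acid, had 238 and 112 FPKM and was 2.11-fold lower (1.88 to 2.39). All of these lower genes had folds under 4.

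**Figure D2:**
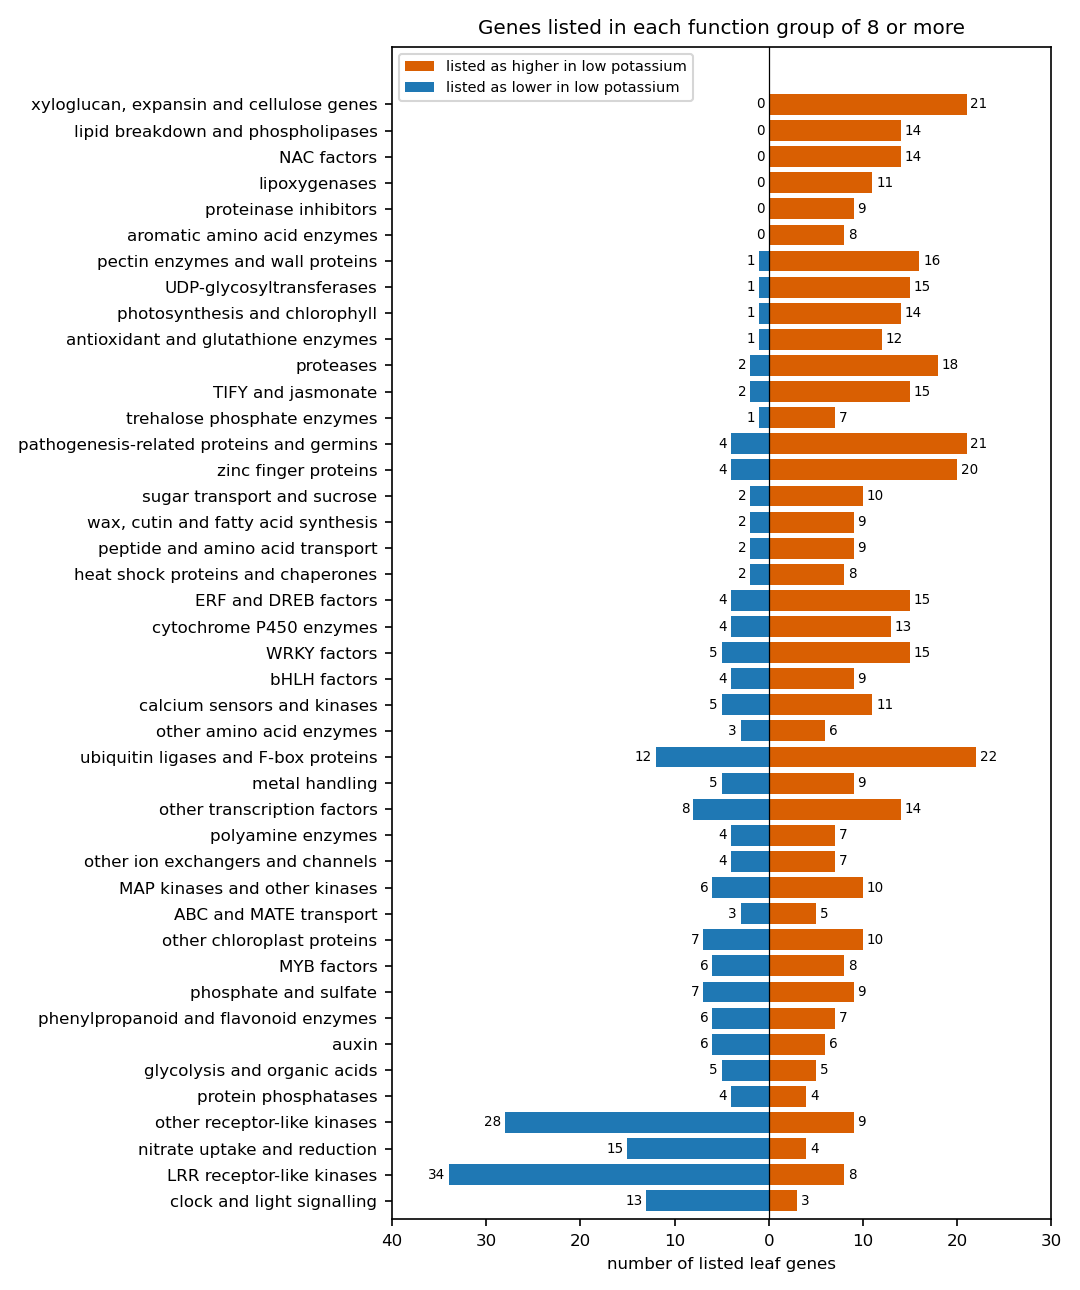
Number of listed leaf genes in each function group of 8 or more members, with those higher in low potassium to the right of 0 and those lower to the left. Groups are ordered by the share of higher members, from clock and light signalling (3 higher, 13 lower) at the bottom to the xyloglucan, expansin and cellulose genes (21 higher, 0 lower) at the top.

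Transport of potassium itself was a small part of the leaf table. Of 5 potassium transport genes, 3 were higher and 2 lower, close to the background share. The largest level difference was that of potassium transporter 1 (Ma05_g07130), of the family that takes up potassium at high affinity, with 1.66 and 20.6 FPKM and a level 12.4-fold higher (7.57 to 21.8). Potassium transporter 11 (Ma02_g04540) had 4.92 and 11.5 FPKM and was 2.34-fold higher (1.55 to 3.59). Potassium transporter 13 (Ma03_g24780) had 2.66 and 0.44 FPKM and was 6.05-fold lower (2.09 to 23.9). The KAT3-like genes, subunits of inward potassium channels, went in opposite directions. Ma10_g27850 had 0.2 and 3.22 FPKM and Ma07_g09180 had 9.3 and 2.77 FPKM, each with counts that are not whole.

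One exchanger that moves cations into the vacuole was far more abundant than the potassium carriers. Of 11 other ion exchangers and channels, 7 were higher and 4 lower. A vacuolar cation/proton exchanger 1a-like gene (Ma04_g06610), of the CAX family that loads calcium and other divalent cations, had 372 and 974 FPKM and was 2.62-fold higher (2.49 to 2.75). A further CAX gene (Ma04_g03740) had 8.11 and 25.6 FPKM and was 3.16-fold higher (2.25 to 4.51). Both CAX genes were thus higher, as was cation/calcium exchanger 1 (Ma08_g20660), with 3.97 and 21.5 FPKM and a level 5.41-fold higher (3.596 to 8.42). On the lower side were carriers of sodium, magnesium and anions. The magnesium/proton exchanger (Ma05_g00150) had 54.4 and 21.2 FPKM and was 2.56-fold lower (2.096 to 3.14). Sodium/hydrogen exchanger 2 (Ma11_g18790), which can also load potassium into the vacuole, had 24.2 and 11.3 FPKM and was 2.14-fold lower (1.62 to 2.85). The sodium transporter HKT1 (Ma01_g18740) had 3.17 and 0.33 FPKM and the S-type anion channel SLAH2 (Ma09_g05270) 5.7 and 0.97 FPKM, both at low levels. Plasma membrane water channel PIP2-6 (Ma05_g11240) had 60.6 and 219 FPKM and was 3.61-fold higher (3.09 to 4.22).

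Nitrate uptake and reduction formed one of the few groups lower in most members. Of 19 genes, 15 were lower and 4 higher, against 32.6% lower in the whole table, with a median log2 ratio of -1.69. Nitrate reductase makes nitrite from nitrate, and NLP factors switch on nitrate-response genes in Arabidopsis. The abundant nitrate reductase (Ma09_g14900) had 1052 and 498 FPKM and was 2.11-fold lower (2.04 to 2.18). All 3 listed nitrate reductases were lower. High affinity nitrate transporter 2.5 (Ma01_g16930), which in Arabidopsis is a carrier of nitrogen-starved plants and works in leaf veins too, had 256 and 23.4 FPKM and was 10.96-fold lower (9.18 to 13.2). Among lower genes with a mean level of at least 100 FPKM this was the largest fold. NLP1 (Ma03_g15290) had 47.6 and 16.3 FPKM and was 2.92-fold lower (2.48 to 3.45), and all 3 NLP genes listed were lower. Of 12 nitrate and ammonium transporters, 9 were lower, with a summed level of 425 FPKM with normal and 131 FPKM with low potassium.

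The 4 members that were higher included an enzyme of nitrogen storage. Asparagine synthetase (Ma05_g30550), which makes the amide asparagine for nitrogen transport, had 5.61 and 41.4 FPKM and was 7.38-fold higher (5.33 to 10.5). A carrier of the NRT1/PTR family 6.2 type (Ma07_g08280) had 3.57 and 32.2 FPKM and was 9.02-fold higher (5.997 to 14.1). A further gene of the 6.2 type (Ma04_g37230) was lower. The NRT1/PTR 6.3 type, the dual-affinity nitrate carrier and sensor of Arabidopsis, split: Ma01_g13520 had 36.1 and 17.1 FPKM and Ma08_g10970 had 0.22 and 13.6 FPKM. The ammonium transporter 2 member 1 (Ma04_g19270) had 5.86 and 13.99 FPKM and was 2.39-fold higher (1.598 to 3.63).

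Most listed amino acid carriers were higher, unlike most listed nitrate carriers. Of 11 peptide and amino acid transporters, 9 were higher and 2 lower, and all 4 amino acid permeases were higher, with a summed level of 59.9 FPKM with normal and 225 FPKM with low potassium. Amino acid permease 4 (Ma06_g14350) had 22.8 and 112 FPKM and was 4.93-fold higher (4.09 to 5.94). The lower member with the highest level was an oligopeptide transporter 3-like gene (Ma10_g18510), of a type that in Arabidopsis moves iron and copper in the phloem, with 74.2 and 22.1 FPKM and a level 3.36-fold lower (2.87 to 3.95). A further gene of the same name (Ma04_g39520) had 10.1 and 30.3 FPKM and was 3.002-fold higher (2.37 to 3.83). Both have counts that are not whole.

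**Figure D3:**
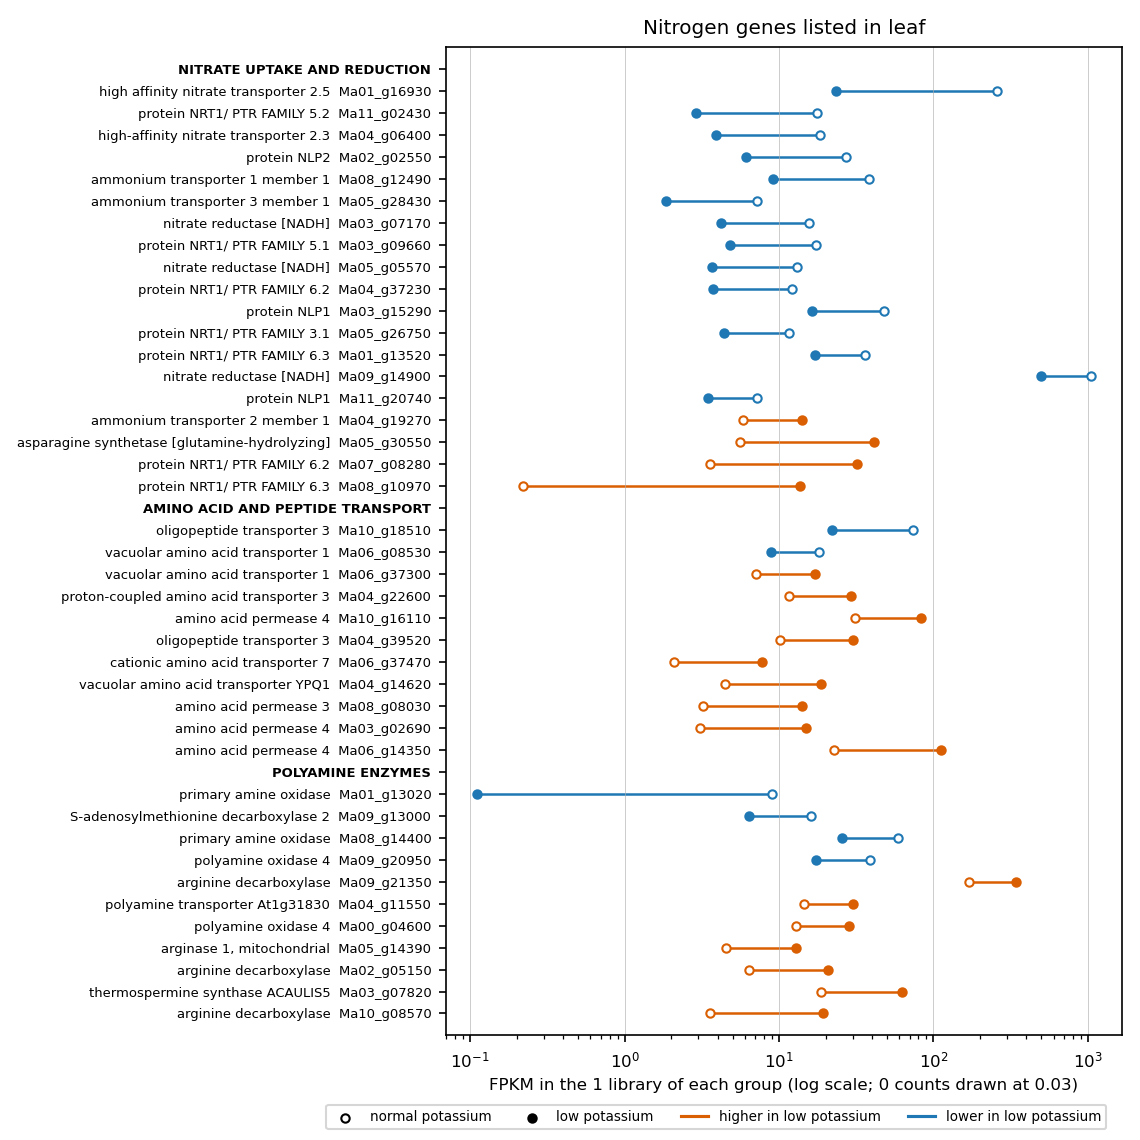
FPKM (x axis, log scale) of the 19 nitrate genes, 11 peptide and amino acid transporters and 11 polyamine genes listed in leaf, with open points for normal and filled points for low potassium. Nitrate reductase Ma09_g14900 is the most abundant, at 1052 and 498 FPKM, and 15 of the nitrate genes but only 2 of the amino acid transporters are lower in low potassium.

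Polyamines are small cations made from arginine, and putrescine has long been known to build up in potassium-poor leaves. All 3 arginine decarboxylases, which start putrescine synthesis from arginine, were higher. Ma09_g21350 had 169.8 and 342 FPKM and was 2.01-fold higher (1.89 to 2.14), and together they had a summed level of 179.7 FPKM with normal and 382 FPKM with low potassium. Thermospermine synthase ACAULIS5 (Ma03_g07820) had 18.8 and 62.7 FPKM and was 3.33-fold higher (2.58 to 4.35). Of the 11 polyamine genes 7 were higher (63.6%), a share near the 67.4% of the table. The 4 lower members act after putrescine, but so do thermospermine synthase and the polyamine oxidase 4 gene Ma00_g04600, which were higher. S-adenosylmethionine decarboxylase 2 (Ma09_g13000), which supplies the groups that turn putrescine into longer polyamines, had 16.2 and 6.36 FPKM and was 2.55-fold lower (1.63 to 4.09). A primary amine oxidase (Ma08_g14400), which breaks putrescine down, had 59.2 and 25.5 FPKM and was 2.33-fold lower (1.89 to 2.87). Another (Ma01_g13020) had 8.94 and 0.11 FPKM, the largest fold among lower genes with a count above 0 in both libraries, at 81.3-fold lower (14.2 to 3249). That fold rests on a single count in the low potassium library. The polyamine oxidase 4 genes went in opposite directions, with 38.8 and 17.3 FPKM for Ma09_g20950 and 12.9 and 28.3 FPKM for Ma00_g04600. This group was gathered after the values had been seen, as were those of aromatic amino acid enzymes, polyphenol oxidases, ribonucleases, trehalose phosphate and starch enzymes, mitogen-activated protein kinases, chloroplast movement, other chloroplast proteins, and other ion exchangers.

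All 8 enzymes of aromatic amino acid metabolism were higher, with a summed level of 93.1 FPKM with normal and 393 FPKM with low potassium. The pathway runs from shikimate to phenylalanine and tyrosine, the sources of phenolic compounds. Shikimate kinase 3 (Ma03_g20800) had 22.4 and 77.96 FPKM and was 3.48-fold higher (2.72 to 4.49). Arogenate dehydratase 3 (Ma04_g19810), which makes phenylalanine, had 35.5 and 75.5 FPKM and was 2.12-fold higher (1.77 to 2.56). The tyrosine branch had larger folds. Tyrosine/DOPA decarboxylase 2-like genes, which make tyramine or dopamine, had 9.57 and 88.3 FPKM for Ma10_g28750 and 7.82 and 80.5 FPKM for Ma07_g07900, with the former 9.23-fold higher (7.08 to 12.1). Banana tissue is known for its high dopamine content. Arogenate dehydrogenase 1 (Ma06_g37060), which makes tyrosine, had 0.67 and 23.4 FPKM and was 34.9-fold higher (15.01 to 91.8). Polyphenol oxidases, which oxidise such phenols and brown cut tissue, were higher in all 5 cases. Ma08_g09150 had 25.6 and 108 FPKM, Ma10_g20510 had 18.9 and 87.6 FPKM, and Ma08_g00340 had no count with normal potassium and 6.64 FPKM with low potassium. Of later phenolic steps, 7 of 13 phenylpropanoid and flavonoid enzymes were higher. This share depended on the choice of members, at 68.4% with the word list as first written and 33.3% of those with whole counts. The 4-coumarate--CoA ligase-like 10 gene (Ma02_g05950) had 41.5 and 148 FPKM and was 3.56-fold higher (3.11 to 4.09). Naringenin 3-dioxygenase (Ma05_g09980), an early flavonoid step, had 12.9 and 1.7 FPKM and was 7.61-fold lower (3.43 to 19.7).

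Phosphate and sulfate genes divided largely by element. Of 16 genes, 9 were higher and 7 lower. SPX domain proteins bind inositol phosphates and restrain the phosphate starvation factor PHR. SPX domain-containing protein 1-like genes had 223 and 103 FPKM for Ma07_g09970 and 71.03 and 35.5 FPKM for Ma04_g37210, and the former was 2.17-fold lower (1.91 to 2.46). A PHR1-like factor (Ma11_g06080) had 36.7 and 9.67 FPKM and was 3.795-fold lower (2.44 to 6.103). The inorganic phosphate transporter 1-10 gene (Ma03_g03540) had 5.08 and 1.34 FPKM, and a glycerol-3-phosphate transporter (Ma08_g10940) had 163 and 79.3 FPKM. The only phosphate gene that was higher was a probable inactive purple acid phosphatase 29 (Ma03_g12320), with 16.8 and 39.4 FPKM. On the sulfate side, 6 of 7 sulfate transporters were higher. Sulfate transporter 3.1 (Ma01_g20480) had 10.7 and 32.2 FPKM and was 2.99-fold higher (2.34 to 3.85). Sulfite reductase (Ma06_g26790), which makes sulfide for cysteine, had 30.9 and 65.8 FPKM and was 2.13-fold higher (1.83 to 2.48).

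Iron storage genes were higher and carriers of metal complexes lower. All 3 ferritins, the iron cages of the chloroplast, were higher, with a summed level of 71.1 FPKM with normal and 228 FPKM with low potassium. Ferritin-1 (Ma05_g31820) had 30.8 and 127 FPKM and was 4.11-fold higher (3.299 to 5.17). All 3 metal-nicotianamine transporters were lower, with a summed level of 174 FPKM with normal and 63.2 FPKM with low potassium. YSL9 (Ma04_g31340) had 149 and 54.3 FPKM and was 2.75-fold lower (2.47 to 3.07). Over all 14 metal handling genes 9 were higher, a share near the background. Copper transporter 6 (Ma02_g05010) had 209 and 104 FPKM and was 2.01-fold lower (1.68 to 2.41).

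The jasmonate pathway stood among the groups with the largest folds. TIFY proteins include the JAZ repressors, which block MYC factors until jasmonate triggers their breakdown, and which are themselves jasmonate-response genes. Of 17 TIFY and jasmonate genes, 15 were higher (88.2%, against 67.4% of the table), with a median log2 ratio of 2.95 against 1.32 over all listed genes. The TIFY 10B-like gene Ma11_g08880 had 33.4 and 342 FPKM and was 10.2-fold higher (8.31 to 12.8). TIFY 10A (Ma06_g32750) had 79.8 and 259 FPKM and was 3.25-fold higher (2.77 to 3.81). TIFY 3B (Ma08_g24540) was the exception among 12 TIFY genes, with 52.1 and 22.8 FPKM and a level 2.29-fold lower (1.63 to 3.25). Allene oxide synthases and an allene oxide cyclase, the committed steps of jasmonate synthesis, were all higher (4 of 4, summed level 28.3 FPKM with normal and 196 FPKM with low potassium). The allene oxide synthase Ma06_g15030 had 10.02 and 85 FPKM and was 8.48-fold higher (6.49 to 11.3). A 12-oxophytodienoate reductase 5-like gene (Ma02_g22720), of the family that holds the next enzyme, had 14.3 and 2.62 FPKM and was 5.45-fold lower (2.83 to 10.8).

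Factors and enzymes of families linked to jasmonate were higher as well. All 6 MYC factors listed were higher, with MYC3 (Ma01_g03440) at 8.92 and 52.98 FPKM. All 7 cytochrome P450 94 genes were higher, of a family in which some members inactivate jasmonoyl-isoleucine by oxidation. The names do not tell which of the 7 do so. Cytochrome P450 94A1 (Ma02_g10440) had 47.5 and 118 FPKM and was 2.49-fold higher (2.17 to 2.86). Most synthesis genes and repressors and all listed P450 94 genes were therefore higher in the same library. Lipoxygenases add oxygen to linoleic and linolenic acid, and all 11 were higher. Of these, 7 are named 9S-lipoxygenases, a branch that does not lead to jasmonate. The most abundant was Ma06_g26850, with 169.6 and 719.7 FPKM and a level 4.24-fold higher (4.03 to 4.46). The 13S-lipoxygenase 2-1 (Ma03_g11520), of the branch that feeds jasmonate synthesis, had 9.17 and 59.5 FPKM and was 6.49-fold higher (5.28 to 8.04).

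**Figure D4:**
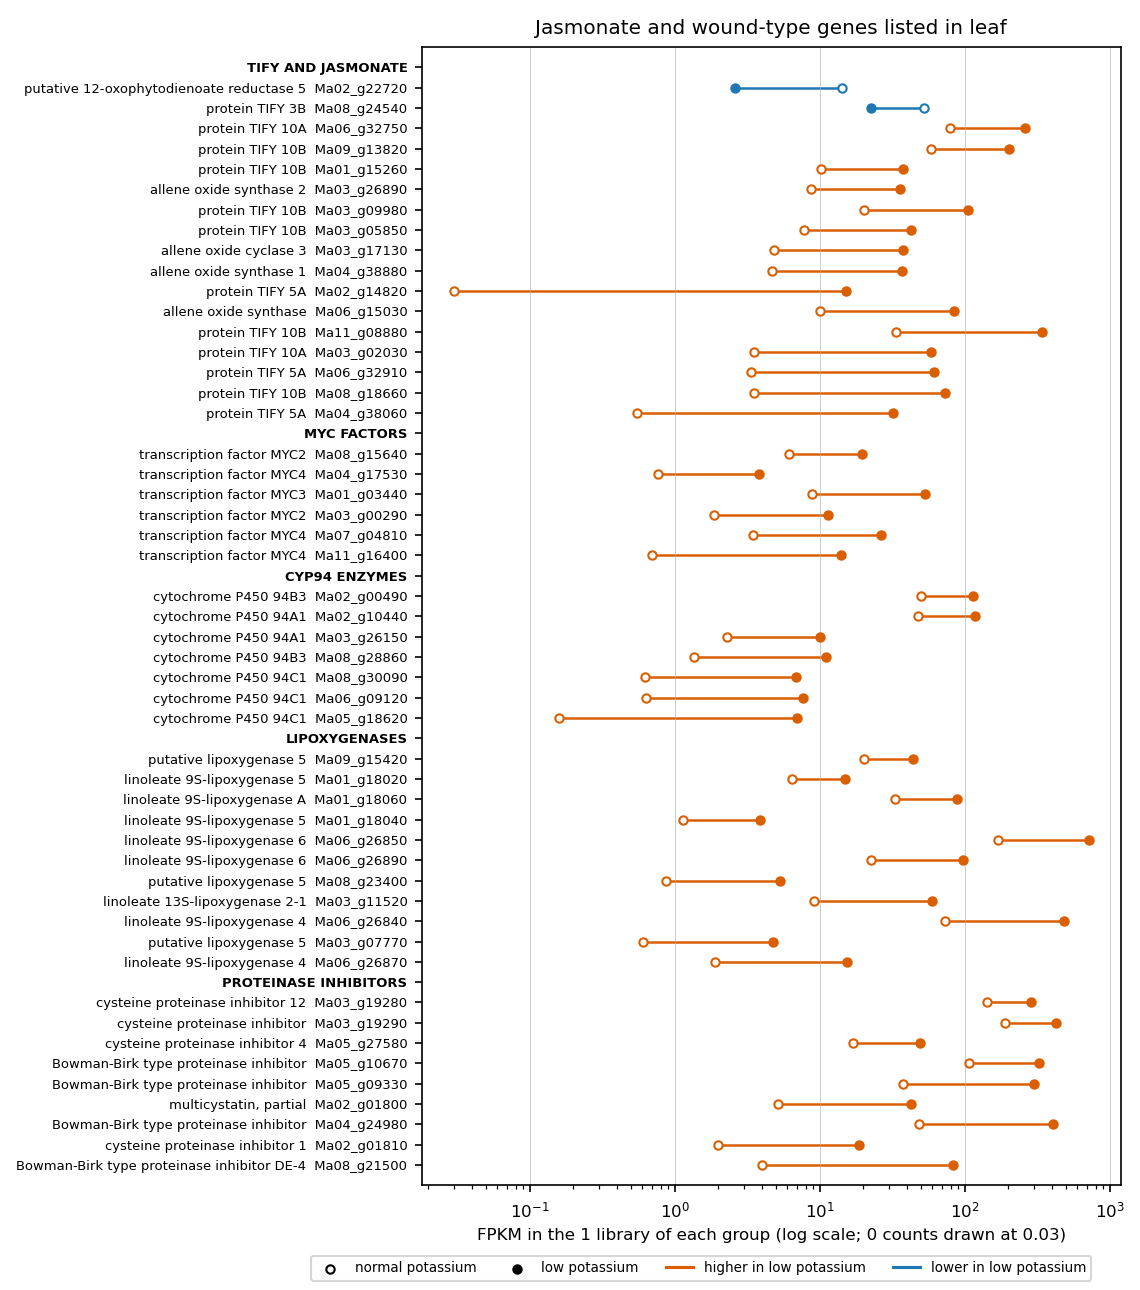
FPKM (x axis, log scale) of TIFY and jasmonate genes, MYC factors, cytochrome P450 94 enzymes, lipoxygenases and proteinase inhibitors listed in leaf, with open points for normal and filled points for low potassium. Among these genes, 2 are lower in low potassium, 12-oxophytodienoate reductase Ma02_g22720 and TIFY 3B Ma08_g24540, and Ma11_g08880 is the most abundant TIFY gene at 33.4 and 342 FPKM.

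Proteins known to harm feeding insects or microbes were higher in low potassium. All 9 proteinase inhibitors were higher, with a summed level of 554 FPKM with normal and 1936 FPKM with low potassium. Bowman-Birk inhibitors block trypsin-like digestive enzymes, and Ma04_g24980 had 48.1 and 406 FPKM and was 8.43-fold higher (6.42 to 11.2). A cysteine proteinase inhibitor (Ma03_g19290) had 189 and 425 FPKM and was 2.25-fold higher (1.98 to 2.57). Mannose-binding lectins were higher in 5 of 5 cases, with a summed level of 356 FPKM with normal and 1555 FPKM with low potassium. Ma09_g10440, one of the lectin genes that bind mannose or glucose, had 117 and 464 FPKM and was 3.98-fold higher (3.1 to 5.18). The mannose-specific lectin Ma06_g16670 had 25.2 and 205 FPKM and was 8.13-fold higher (6.08 to 11.1). All 4 extracellular-type ribonucleases were higher. Ribonuclease 3 (Ma09_g07590), of the T2 family known from phosphate-starved and senescing leaves, had 267 and 1112 FPKM and was 4.16-fold higher (3.87 to 4.49).

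Of 25 pathogenesis-related and germin genes, 21 were higher and 4 lower. The lower ones were all MLO-like proteins, which in barley make cells open to powdery mildew. MLO-like protein 1 (Ma08_g19130) had 22.6 and 8.11 FPKM and was 2.79-fold lower (2.004 to 3.95). The thaumatin-like protein P21 (Ma04_g38470) had 107 and 266 FPKM and was 2.48-fold higher (2.16 to 2.85). A pathogen-related protein (Ma06_g18530) had 35.6 and 244 FPKM and was 6.83-fold higher (5.55 to 8.49). Phylloplanins are antifungal proteins of the leaf surface in tobacco. All 3 phylloplanin-like genes were higher, among them Ma08_g10050 with 3.33 and 83.7 FPKM. Class III peroxidases, secreted enzymes of the wall, were higher in all 4 cases, with cationic peroxidase SPC4 (Ma10_g15940) at 182 and 419.7 FPKM.

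Receptor-like kinases were lower in most members, in contrast to the defence proteins. These kinases span the plasma membrane and sense hormones, wall fragments or microbes. Of 42 leucine-rich repeat kinases 34 were lower, and of 37 other receptor-like kinases 28 were lower, against 32.6% lower in the table. This direction rests on members with counts that are not whole: of those with whole counts in both libraries, 58.3% of the leucine-rich repeat and 53.8% of the other kinases were higher. The summed level of all 79 was 1241 FPKM with normal and 572 FPKM with low potassium. The most abundant, At1g51880-like Ma07_g26520, had 259.7 and 107 FPKM and was 2.43-fold lower (2.28 to 2.601). Cysteine-rich receptor-like protein kinase 2 (Ma05_g11590) had 211 and 105 FPKM and was 2-fold lower (1.84 to 2.18). The GSO2-like gene Ma06_g10790 had 59.05 and 18.98 FPKM and was 3.11-fold lower (2.67 to 3.63). All 14 wall-associated kinases, which bind pectin, were lower, from a summed 50.6 FPKM with normal and 4.89 FPKM with low potassium. Of these 14, 6 had no count in low potassium and 13 have a count that is not whole, and the part of fragments shared between similar copies was not tested. Wall-associated kinase-like 2 (Ma02_g13010) had 14.2 and 1.76 FPKM and was 8.09-fold lower (3.18 to 26.05). Among the 8 leucine-rich repeat kinases that were higher, a GSO1-like gene (Ma08_g19670) had 5.07 and 11.8 FPKM and was 2.33-fold higher (1.78 to 3.06).

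Kinases and calcium sensors inside the cell were, as whole groups, near the background. Of 16 other kinases, 10 were higher. All 7 genes of the mitogen-activated protein kinase cascade, which relays stress signals, were higher, and all were kinases of the upper tiers. Mitogen-activated protein kinase kinase 9 (Ma08_g18850) had 7.39 and 22 FPKM and was 2.98-fold higher (1.99 to 4.57). Of 16 calcium genes 11 were higher, a share near the background that came to 42.9% among members with whole counts, and all 6 calmodulins and calmodulin-like proteins were among them. Calmodulin (Ma03_g09180) had 182 and 498 FPKM and was 2.74-fold higher (2.404 to 3.12). CBL-interacting kinases pass calcium signals on to ion channels. CBL-interacting kinase 11 (Ma09_g04710) had 38.8 and 86 FPKM and was 2.21-fold higher (1.88 to 2.62). Kinase 1 genes went both ways, with 11.3 and 34.4 FPKM for Ma07_g17570 and 77.1 and 36.9 FPKM for Ma11_g04530. A phosphoenolpyruvate carboxylase kinase (Ma04_g18750), which activates the carboxylase of malate synthesis, had 38.4 and 3.16 FPKM and was 12.1-fold lower (6.59 to 24.96).

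Transcription factor families differed in their share of higher members. All 14 NAC factors were higher, a family with known regulators of leaf senescence. NAC29-like Ma06_g33980 had 113 and 286 FPKM and was 2.54-fold higher (2.29 to 2.83), and NAC68-like Ma06_g33990 had 64.3 and 234 FPKM. The largest NAC fold was that of Ma10_g04910, a NAC100-like gene, with 0.73 and 46.5 FPKM and a level 63.7-fold higher (21.5 to 312), which rests on 3 counts with normal potassium. Of other senescence markers looked for, STAY-GREEN (Ma07_g18910), which starts chlorophyll breakdown, had 11.5 and 30.6 FPKM and was 2.65-fold higher (1.797 to 3.94), and SAG12 and pheophorbide a oxygenase were not among the listed genes. Of 20 WRKY factors 15 were higher, of 19 ERF and DREB factors 15, of 24 zinc finger proteins 20, of 13 bHLH factors 9 and of 14 MYB factors 8. Against 67.4% of the table, the shares were 75% for WRKY, 78.9% for ERF and DREB and 83.3% for zinc finger proteins. They were 69.2% for bHLH and 57.1% for MYB factors. The WRKY and bHLH shares lay nearest that of the table. With 13 to 24 genes per family, these differences in share were not tested. Among abundant genes the zinc finger share was 60% and the WRKY share 91.7%. With genes allowed in several groups the zinc finger share was 71%, near that of the table. WRKY31-like Ma10_g15390, the most abundant WRKY gene, had 69.8 and 144 FPKM and was 2.06-fold higher (1.85 to 2.302). WRKY26-like genes went in opposite directions, with 11.6 and 92.6 FPKM for Ma08_g01650 and 14.1 and 4.43 FPKM for Ma03_g09720. All 5 MYB44-like genes, of a type that in Arabidopsis acts in stomatal closure, were higher, with Ma09_g23100 at 13.7 and 102 FPKM.

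Genes of other hormones were spread over 5 groups. Both abscisic acid synthesis and breakdown genes were higher. Abscisic acid 8'-hydroxylase 3 (Ma04_g18900), a breakdown enzyme, had 32.5 and 115 FPKM and was 3.54-fold higher (3.01 to 4.15). 9-cis-epoxycarotenoid dioxygenase (Ma04_g29400), the control step of synthesis, had 1.66 and 14.8 FPKM and was 8.89-fold higher (4.84 to 16.7). The receptor PYL8 (Ma10_g21790) had 48.99 and 18.9 FPKM and was 2.59-fold lower (1.83 to 3.72). Abscisic stress-ripening protein 1 (Ma06_g27530), a small protein of dry or ripening tissue, had 145 and 449 FPKM and was 3.099-fold higher (2.604 to 3.704). Ethylene-insensitive 3-like factors, the main switches of ethylene response, had 28.4 and 84.8 FPKM for Ma08_g22320 and 7.96 and 22.7 FPKM for Ma09_g16910. All 4 gibberellin genes and all 5 genes of the cytokinin and brassinosteroid group were higher, including 3 cytokinin dehydrogenases, which destroy the hormone. That count leaves out Ma07_g09470, a gene of brassinosteroid synthesis placed among the cytochrome P450 enzymes. It was lower, with a log2 ratio of -1.74. The share of the cytokinin and brassinosteroid group was 83.3% with the word lists as first written. With genes allowed in several groups it was 85.7%. Cytokinin dehydrogenase 3 (Ma07_g02230) had 3.9 and 13.3 FPKM and was 3.42-fold higher (2.19 to 5.53). The gibberellin receptor GID1C (Ma06_g17630) had 7.48 and 31.6 FPKM and was 4.22-fold higher (2.87 to 6.47). Auxin genes were split, with 6 higher and 6 lower. Auxin response factor 19 (Ma03_g05350) had 60.5 and 131 FPKM and auxin response factor 7 (Ma09_g07970) 137 and 57.8 FPKM.

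The listed starch genes were lower, while most listed sugar genes, like most of the table, were higher. All 4 starch synthesis genes were lower, with a summed level of 499 FPKM with normal and 215 FPKM with low potassium. Granule-bound starch synthase 1 (Ma04_g25840), which makes amylose, had 416 and 182 FPKM and was 2.29-fold lower (2.15 to 2.44). The large subunit of glucose-1-phosphate adenylyltransferase (Ma09_g06650), the entry step of starch synthesis, had 36.5 and 11.5 FPKM and was 3.18-fold lower (2.45 to 4.18). Branching enzyme 1 (Ma06_g09160) had 30.6 and 15.1 FPKM and was 2.03-fold lower (1.67 to 2.47). Isoamylase 1 (Ma09_g13520), which trims the growing polymer, had 15.5 and 7.41 FPKM and was 2.09-fold lower (1.55 to 2.84). Their folds lay between 2.03 and 3.18. Trehalose phosphate signals sugar supply to the cell, and 7 of 8 of its genes were higher. Trehalose-phosphate synthase 9 (Ma03_g04770) had 17.7 and 203 FPKM and was 11.5-fold higher (9.89 to 13.4). The exception, trehalose-phosphate synthase 1 (Ma09_g05570), is the type with proven activity in Arabidopsis and had 24.9 and 12.3 FPKM. Of 12 sugar and sucrose genes, 10 were higher (83.3%, against 67.4% of the table). Among abundant members the share was 71.4%, near that of the table. Cell wall invertase (Ma10_g15800), which splits sucrose outside the cell, had 50.7 and 109.7 FPKM, and all 5 invertases were higher with a summed level of 85.03 FPKM with normal and 207 FPKM with low potassium. The sugar carriers SWEET1a (Ma11_g08590), at 25.6 and 11.5 FPKM, and polyol transporter 1 (Ma04_g07020), at 64.5 and 22.5 FPKM, were lower. Phosphoenolpyruvate carboxykinase (Ma04_g27480), a step from organic acids back to sugars, had 14.1 and 68.5 FPKM and was 4.87-fold higher (3.99 to 5.98).

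Photosynthesis genes were higher in 14 of 15 cases (93.3%), with a summed level of 879.9 FPKM with normal and 2070.0 FPKM with low potassium. With the word list as first written, which also took other proteins described as chloroplastic and was corrected with values seen, the share was 72.3%, close to the 67.4% of the table. A light-regulated protein (Ma06_g30390) had 204 and 648 FPKM and was 3.18-fold higher (2.81 to 3.62). The light-harvesting protein of LHCII type 1 (Ma02_g11170) had 58.9 and 229 FPKM and was 3.89-fold higher (3.31 to 4.57). A small chain of ribulose bisphosphate carboxylase (Ma06_g11230) had 96.6 and 205 FPKM and was 2.12-fold higher (1.79 to 2.51). The group also holds STAY-GREEN, a breakdown gene. These are large families whose other copies were not listed and not analysed here, and 9 of the 15 genes have a count that is not whole. The exception was violaxanthin de-epoxidase (Ma06_g22010), which sheds excess light as heat, with 188 and 87.7 FPKM and a level 2.14-fold lower (1.88 to 2.44). Chloroplast movement genes were lower in 3 of 4 cases. PLASTID MOVEMENT IMPAIRED 2 (Ma08_g17800), which steers chloroplasts in light, had 117 and 30.7 FPKM and was 3.79-fold lower (3.22 to 4.48). The CHUP1 genes, which anchor chloroplasts, went in opposite directions, with 3.45 and 8.4 FPKM for Ma06_g02590 and 12.3 and 3.79 FPKM for Ma05_g29660. Thiamine thiazole synthase 2 (Ma07_g00170), of vitamin B1 synthesis in the chloroplast, had 131 and 484 FPKM and was 3.71-fold higher (3.38 to 4.07).

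Clock and light signalling genes were mostly lower, 13 of 16. The share of higher members was 18.8%, and 33.3% with the word list as first written. The clock consists of morning and evening factors that repress each other in turn. PRR95 (Ma09_g24730), a day-phase repressor, had 512 and 201 FPKM and was 2.55-fold lower (2.41 to 2.699). LUX-like Ma08_g17730, of the evening complex, had 130.1 and 53.8 FPKM and was 2.42-fold lower (2.08 to 2.82). REVEILLE 1 (Ma11_g01360), a morning factor, had 129.6 and 61.2 FPKM and was 2.12-fold lower (1.86 to 2.41). These factors were all lower in the low potassium library, and their phases in banana leaf were not measured here. SPA1-related 4 (Ma03_g32970), a partner of the light-signalling ligase COP1, had 199 and 94.8 FPKM and was 2.104-fold lower (1.95 to 2.27). The adagio-like protein 3 gene (Ma07_g10990), a blue-light receptor of flowering time in Arabidopsis, was one of 3 that were higher, at 14.9 and 45.4 FPKM. Such genes change through the day, and the hour of sampling is not given in the sources used here, so its part in these differences was not tested.

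**Figure D5:**
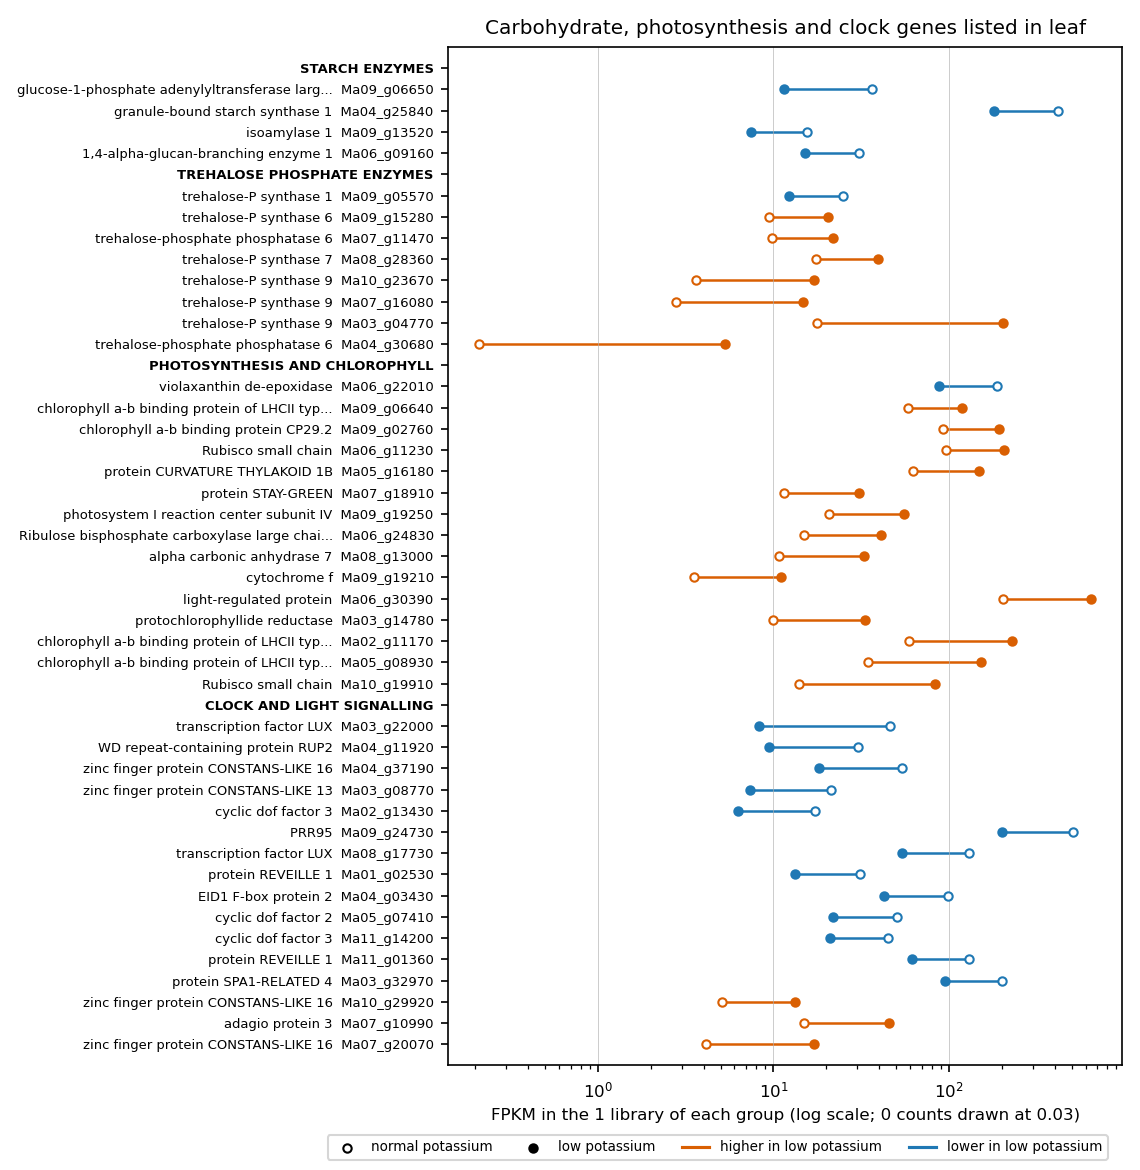
FPKM (x axis, log scale) of starch, trehalose phosphate, photosynthesis and clock genes listed in leaf, with open points for normal and filled points for low potassium. All 4 starch genes and 13 of 16 clock genes are lower in low potassium, and 14 of 15 photosynthesis genes are higher.

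Cell wall genes were almost all higher. Plant cell walls are loosened by expansins and by enzymes that cut and rejoin xyloglucan. All 21 xyloglucan, expansin and cellulose genes were higher, including 7 xyloglucan endotransglucosylases with a summed level of 155 FPKM with normal and 422 FPKM with low potassium. Xyloglucan endotransglucosylase/hydrolase 23 (Ma03_g05070) had 78.1 and 195 FPKM and was 2.49-fold higher (2.16 to 2.88). Of 17 pectin enzymes and wall proteins 16 were higher. The proline-rich protein DC2.15 (Ma11_g19450) had 150.1 and 420.2 FPKM and was 2.799-fold higher (2.42 to 3.25). A polygalacturonase (Ma08_g22940), which cuts pectin, was the exception, at 6.82 and 1.72 FPKM.

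Glutathione enzymes and glycosyltransferases were nearly all higher. Of 13 antioxidant and glutathione enzymes 12 were higher, among them all 9 glutathione S-transferases, with a summed level of 554 FPKM with normal and 1845 FPKM with low potassium. With the single lower gene, GDP-L-galactose phosphorylase, included, the summed level of the whole group differed less, at 2566 FPKM with normal and 3484 FPKM with low potassium. Glutathione S-transferase GSTF1 (Ma02_g04250) had 84.3 and 272 FPKM and was 3.22-fold higher (2.77 to 3.76). UDP-glycosyltransferases, which attach sugars to small molecules, were higher in 15 of 16 cases. A 7-deoxyloganetin glucosyltransferase-like gene (Ma08_g17530) had 36.8 and 148 FPKM and was 4.03-fold higher (3.26 to 4.99). Of 17 cytochrome P450 enzymes 13 were higher, and without the P450 94 genes given above 6 of 10. The lower ones included P450 90D2 (Ma07_g09470), of brassinosteroid synthesis, at 56.1 and 16.8 FPKM, and P450 78A4 (Ma06_g22120), at 38.1 and 5.48 FPKM.

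Enzymes that break down lipids and proteins were higher too. All 14 genes of lipid breakdown were higher, with folds from 2.16 to 12.1. A GDSL lipase (Ma08_g10160) had 23.4 and 58.4 FPKM and was 2.49-fold higher (2 to 3.102). Patatin-like protein 2 (Ma03_g21180), which releases fatty acids from membrane lipids, had 2.5 and 30.3 FPKM and was 12.1-fold higher (6.88 to 23.3). Of 20 proteases 18 were higher, among them all 8 aspartic proteinases and all 5 subtilisin-like proteases. The ubiquitin ligases and F-box proteins, at 22 of 34 higher, were near the background. In amino acid breakdown, methionine gamma-lyase (Ma08_g11540) had 92.2 and 230.5 FPKM and was 2.5-fold higher (2.26 to 2.77). An asparaginase (Ma08_g19880), which releases ammonium from asparagine, had 18.8 and 1.73 FPKM and was 10.9-fold lower (5.04 to 27.97). It thus went in the direction opposite to asparagine synthetase. Among wax and fatty acid genes, 9 of 11 were higher, with 3-ketoacyl-CoA synthase 11 (Ma07_g08400) at 40.1 and 110.5 FPKM.

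Genes of growth were few in the leaf table. It holds 6 genes of histones and cell division, 4 of them lower, and 7 of ribosomes and translation, 5 of them higher. A cyclin-dependent kinase regulatory subunit 1 gene (Ma02_g13600) had no count with normal potassium and 32.8 FPKM with low potassium, while a gene of the same name (Ma02_g13560) had 47.2 and 16.3 FPKM. Both have counts that are not whole, and whether they share fragments was not tested. Heat shock proteins and chaperones were higher in 8 of 10 cases (80%, against 67.4% of the table). The group leaves out Ma06_g36160, the heat shock protein relative given above. That gene was lower, at 834 FPKM with normal and 331 FPKM with low potassium, and counting it would reduce the share. A mitochondrial chaperone BCS1-B (Ma04_g18020) had 26.1 and 85.9 FPKM and was 3.29-fold higher (2.75 to 3.96). Mitochondrial uncoupling protein 5 genes went in opposite directions, with 144 and 355 FPKM for Ma10_g24950 and 89.4 and 36.5 FPKM for Ma05_g20170. Alternative oxidase, named ubiquinol oxidase 2 (Ma06_g03040), which lets respiration run without proton pumping, had 44.7 and 103 FPKM and was 2.31-fold higher (1.95 to 2.77).

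Several of the most abundant genes have no informative name. Ma04_g29230, with no database match, had the highest level of any listed gene in the low potassium library, with 909.8 and 4328 FPKM and a level 4.76-fold higher (4.46 to 5.08). Ma07_g07200, also without a match, had the highest level with normal potassium, with 4962 and 2386 FPKM and a level 2.08-fold lower (1.94 to 2.23). The hypothetical protein Ma06_g20260 had 698 and 1455 FPKM and was 2.08-fold higher (1.97 to 2.201). The uncharacterised protein Ma00_g05330 had 200.4 and 933 FPKM and was 4.65-fold higher (4.23 to 5.12). Among all 210 unnamed genes, 140 were higher and 70 lower, in the proportion of the whole table. The largest fold among genes with at least 10 counts where low was that of TIFY 10B Ma08_g18660 on the higher side, with 3.52 and 72.7 FPKM and a level 20.7-fold higher (11.3 to 42). On the lower side it was the oxygenase SRG1-like gene Ma11_g05490, named after a senescence-related gene of Arabidopsis, with 62.6 and 2.91 FPKM and a level 21.5-fold lower (12.4 to 40.9).

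Some listed genes lay in runs of nearly consecutive identifier numbers. Of 28 runs of 3 or more listed genes with identifiers at most 3 steps apart, 11 held only higher genes, 9 only lower genes and 8 both. Since 67.4% of all listed genes were higher, part of the runs would share a direction by that alone. The number to be met with by that share was not computed. Ribonucleases Ma09_g07590 to Ma09_g07630 had a summed level of 352 FPKM with normal and 1427 FPKM with low potassium. Lipoxygenases Ma06_g26840 to Ma06_g26890 had 268 FPKM with normal and 1319 FPKM with low potassium, and polyphenol oxidases Ma08_g09150 to Ma08_g09170 39.5 FPKM with normal and 190.1 FPKM with low potassium. The leucine-rich repeat kinases Ma06_g10790 to Ma06_g10830 were all lower, with a summed level of 153 FPKM with normal and 45.4 FPKM with low potassium. All of the lipoxygenases, polyphenol oxidases and kinases just named have a count that is not whole. Other runs hold unlike genes. Tropinone reductase homologs Ma09_g03430 to Ma09_g03470 held both directions. So did the run Ma09_g10410 to Ma09_g10480, which includes lectin genes, with 5 genes higher and 1 lower. All 6 genes of that run have a count that is not whole.

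Of the listed leaf genes, 410 were also in the authors' deposited root table, 34.7% of the leaf table and 8.64% of the root table. The root libraries came from the same design, with 1 library each. In root, 40.4% of the 4747 listed genes were higher and 59.6% lower in low potassium. Of the shared genes 266 were higher in both tissues, 33 lower in both, 81 higher in leaf and lower in root, and 30 lower in leaf and higher in root. Over all 1183 leaf genes, 299 were listed in the same direction in root and 111 in the opposite direction. By group, 13 of 17 TIFY and jasmonate genes and 12 of 14 NAC factors were listed in the same direction in root. Lectins were the reverse, with all 5 higher in leaf and lower in root. Other groups were divided. Of the lipoxygenases, 3 had the same and 4 the opposite direction, and of the proteinase inhibitors 2 and 2. The lectin Ma09_g10440 had 6270.1 FPKM with normal and 966 FPKM with low potassium in the root libraries. The difference between tissues was not tested.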

How the data were processed

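RNA of leaves was sequenced from oligo(dT)-selected, random-primed libraries without strand marking, per the labels' protocols, so a gene and its antisense partner cannot be told apart. The authors' deposited table gives, per the file headers, an expression column that holds estimated counts (some are not whole numbers), FPKM values, log2 ratios, p-values and FDR values. The authors deposited only genes past an FDR and log2 limit. Not given in the sources used here: aligner, genome build and test. An FPKM of 0.001 is written where the count is 0.

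The FPKM ratio was recomputed for each gene, with a 95% Clopper-Pearson interval of its counts in Python 3.11.15 (scipy 1.17.1, pandas 2.3.3, numpy 2.4.6, matplotlib 3.10.9), tested on simulated data. Intervals and floors cover counting error only. Where a library had 0 counts the fold is a lower bound that assumes 3 counts there. Counts within 0.001 of a whole number were taken as whole. Gene lengths are mostly multiples of 3 and are taken as coding lengths. With 1 library per group no test was made. Genes were assigned to function groups by words of the protein description, each gene to 1 group. The groups were chosen with earlier results of these data known, and the word lists were corrected after values were seen. Named genes were drawn by a rule. It covers the 15 most abundant in each direction and up to 4 per group and direction. It also covers the 10 largest folds in each direction with at least 10 counts where low. Members of groups of 6 or fewer and the ends of runs of neighbouring identifiers complete it. Not every gene that the rule selects is named. Named outside this rule, after their values were seen, were cation/calcium exchanger 1, arogenate dehydrogenase 1, phosphate transporter 1-10, naringenin dioxygenase, the allene oxide synthase, 13S-lipoxygenase 2-1, phylloplanin, wall-associated kinase-like 2, a CBL-interacting kinase 1, NAC100, STAY-GREEN, a WRKY26, an uncoupling protein 5 and ubiquinol oxidase 2. Alternatives were a pseudocount of 1 FPKM, folds from counts, a count minimum of 10, abundant genes only, whole counts only, intervals past 2-fold, and other word matching.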

Additional observations from a re-analysis of the deposited data

Results flagged for a closer look

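The direction in leaf and the direction in root were opposite for 111 of the leaf genes also listed in root. Of these, 81 were higher in leaf and lower in root with low potassium, and 30 were lower in leaf and higher in root. Each tissue has 1 library per potassium level, and the difference between tissues was not tested. It is untested also for the individual genes below, whose values are log2 ratios of FPKM, low over normal potassium, in the root libraries.

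Genes named above that were higher in leaf and had a ratio below 0 in root included Bowman-Birk type proteinase inhibitor-like Ma04_g24980 (-1.44), ferritin-1 Ma05_g31820 (-1.36), mannose-specific lectin-like Ma06_g16670 (-3.33), linoleate 9S-lipoxygenase 6-like Ma06_g26890 (-1.93) and thiamine thiazole synthase 2 Ma07_g00170 (-1.55). In the same direction were tyrosine/DOPA decarboxylase 2-like Ma07_g07900 (-1.42), aspartic proteinase nepenthesin-1-like Ma08_g02730 (-2.25), phylloplanin-like Ma08_g10050 (-1.78) and protein NRT1/ PTR FAMILY 6.3-like Ma08_g10970 (-1.70). Further such genes were LRR receptor-like serine/threonine-protein kinase GSO1 Ma08_g19670 (-1.13), tropinone reductase homolog At1g07440-like Ma09_g03470 (-2.49), mannose/glucose-specific lectin-like Ma09_g10440 (-2.70) and 14 kDa proline-rich protein DC2.15-like Ma11_g19450 (-1.24). Genes that were lower in leaf and had a ratio above 0 in root were copper transporter 6-like Ma02_g05010 (1.93), putative 12-oxophytodienoate reductase 5 Ma02_g22720 (1.01), putative polyol transporter 1 Ma04_g07020 (1.11), naringenin dioxygenase Ma05_g09980 (1.55), LRR receptor-like serine/threonine-protein kinase GSO2 Ma06_g10830 (2.21) and MLO-like protein 1 Ma08_g19130 (1.06).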

How the results depend on the processing

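With 1 library per group, no library could be left out and every value lacks a replicate check. No paired analysis was possible because each group has 1 library. The table holds only genes past the authors' limits, so shares describe listed genes and not the leaf transcriptome. Higher and lower genes numbered 404 and 188 among genes at or above the median mean FPKM, 480 and 224 among genes with whole counts, and 464 and 160 among genes whose counting interval lay past 2-fold. Those alternatives keep fewer genes by construction, and the last gave 74.4% higher. The leaf genes also listed in root numbered 212 among abundant genes, with 160 in the same and 52 in the opposite direction, and 247 among genes with whole counts, with 188 and 59. The whole-count root comparison, the table without genes at 0 counts and the first word lists were alternatives chosen after seeing the data.

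Groups whose majority changed side are given by the percent of members higher. Among abundant genes these were phosphate and sulfate (42.9%), ABC and MATE transport (33.3%), kinases other than receptors (42.9%) and other transcription factors (41.7%). With whole counts only they were calcium sensors (42.9%), leucine-rich repeat kinases (58.3%), other receptor-like kinases (53.8%) and phenylpropanoid enzymes (33.3%). With intervals past 2-fold they were water channels and proton pumps (100%) and histones and cell division (100%). With genes allowed in several groups they were kinases other than receptors (36.5%) and other amino acid enzymes (44.1%). With a pseudocount of 1 FPKM the median log2 ratio of protein phosphatases was 0.023. With the word lists as first written the percent higher was 72.3 for photosynthesis, 33.3 for the clock, 68.4 for phenylpropanoid enzymes, 73.9 for kinases other than receptors, 55.6 for bHLH factors and 100 for proteases. With those first lists the percent higher was also 70 for wax, cutin and fatty acid synthesis and 74.1 for zinc finger proteins. It was 76 for pathogenesis-related proteins and germins and 83.3 for cytokinin and brassinosteroid. The cause was not tested.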

Other observations

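A few smaller families were not described above. All 4 germin-like proteins, secreted proteins of the wall that include oxalate oxidases in cereals, were higher, with a summed level of 67.4 FPKM with normal and 365 FPKM with low potassium. All 5 endo-1,3-beta-glucosidases, which cut callose and fungal walls, were higher, with a summed level of 39.6 FPKM with normal and 106 FPKM with low potassium. Remorins, membrane proteins of plasma membrane domains, were lower in 2 of 3 cases, with a summed level of 275 FPKM with normal and 132 FPKM with low potassium. Cyclic dof factors, which delay flowering in Arabidopsis, were lower in all 3 cases, with a summed level of 113 FPKM with normal and 49.3 FPKM with low potassium. Type 2C protein phosphatases, which include repressors of abscisic acid signalling, were split, with 4 higher and 2 lower.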
